A study of Mus musculus with 8 samples.

Results

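The mitochondrial respiratory chain genes of mouse paw skin were compared between Krt16 null lesions and wild-type (WT) skin. Members were all probe sets whose annotated symbol starts with Ndufa, Ndufb, Ndufc, Ndufs, Ndufv, Uqcr, Cox4 to Cox8 or Atp5, or is Sdha, Sdhb, Sdhc or Sdhd. Symbols ending in -ps were left out, and a probe set listing several symbols counted only where all of them fit. This gave 97 probe sets for 93 symbols, of 32750 annotated probe sets tested and 32022 symbols. Atp5l has 3 probe sets, and Atp5g2 and Atp5d have 2 each. Left out were 4 probe sets, for Atp5c1-ps and for Atp5g2, Cox5b and Ndufb4 listed together with a provisional gene. The pseudogene Atp5l-ps1 stayed in, because its name does not end in -ps.

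RNA came from the forepaw skin of 8 C57Bl/6 littermates aged 8 weeks, 1 Affymetrix array per mouse. The WT group held 2 males and 2 females whose skin was labelled normal. The Krt16 null group held 2 males and 2 females whose skin was labelled as a lesion; in the null allele the bacterial LacZ gene stands in place of the coding sequence of Krt16, a keratin of palm and sole epidermis. Genotype and lesion therefore cannot be told apart. Krt16 itself read 8.35 ± 1.07 in WT and 6.90 ± 0.07 in null skin (SD, n = 4, log2). Every null array lay below every WT array, with an adjusted p in limma of 0.0648 (0.0315 with same-numbered mice as pairs). Female WT 1 read 7.05, near the highest null array at 6.99, while the other WT arrays read 8.20 to 9.66. Values are log2 RMA signals, and a difference is always null minus WT. Median signals were 3.97 to 4.03 per array and those of the negative control probe sets 4.26 to 4.46. The means of 4 member probe sets (1 each for Atp5l, Atp5d, Cox8c and Cox7b2) lay under the highest of these control medians, where the size of a difference is not exact. In bulk skin, fewer cells of a type and less RNA per cell cannot be told apart.

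Respiratory complexes I to IV pass electrons from NADH and succinate to oxygen, complexes I, III and IV pump protons across the inner mitochondrial membrane, and ATP synthase uses the returning protons to make ATP. Complex I takes electrons from NADH, complex II from succinate, complex III hands them to cytochrome c, and complex IV, cytochrome c oxidase, passes them to oxygen. Nuclear genes, the ones measured here, encode most subunits, and striated muscle uses its own isoforms of several complex IV subunits. The transcription factors NRF1 and GABP (an ETS factor) are known to bind the promoters of many of these genes.

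The 120 bases before the annotated start of 6 members are shown, 5' to 3' along each gene, from the RefSeq promoter table of build GRCm38.p6. They belong to the 3 members that rose in null skin (Ndufaf4, Atp5k, Ndufa4), the ATP synthase gene Atp5g2, which fell, and 2 muscle isoforms of complex IV. Capitals mark a match to a searched motif.
Ndufaf4, chr4:24897963-24898082, plus strand: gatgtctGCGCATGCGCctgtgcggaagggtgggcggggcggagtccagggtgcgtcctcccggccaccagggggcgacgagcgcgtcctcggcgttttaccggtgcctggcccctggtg
Atp5k, chr5:108434400-108434519, minus strand: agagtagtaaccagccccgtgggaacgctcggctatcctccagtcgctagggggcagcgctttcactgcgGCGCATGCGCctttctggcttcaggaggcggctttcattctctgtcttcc
Atp5g2, chr15:102671048-102671167, minus strand: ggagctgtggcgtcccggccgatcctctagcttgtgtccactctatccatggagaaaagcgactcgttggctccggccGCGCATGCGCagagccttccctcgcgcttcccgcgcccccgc
Ndufa4, chr6:11907451-11907570, minus strand: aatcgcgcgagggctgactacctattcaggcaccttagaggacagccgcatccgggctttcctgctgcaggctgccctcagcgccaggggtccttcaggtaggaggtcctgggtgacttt
Cox7a1, chr7:30184051-30184170, plus strand: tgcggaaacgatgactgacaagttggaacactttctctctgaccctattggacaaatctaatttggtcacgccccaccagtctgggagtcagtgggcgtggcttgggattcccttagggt
Cox8b, chr7:140900447-140900566, minus strand: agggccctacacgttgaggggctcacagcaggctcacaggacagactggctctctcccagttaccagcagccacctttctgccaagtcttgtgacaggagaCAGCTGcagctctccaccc

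Ndufaf4, Atp5k and Atp5g2 all carry the same NRF1-type letters, at 113 to 104, 50 to 41 and 42 to 33 bases before the start. Ndufaf4 and Atp5k rose in null skin and Atp5g2 fell. The Ndufa4 and Cox7a1 stretches hold none of the 6 motifs searched, and Cox8b holds an E-box at 19 to 14 bases. Cox6a2 had no entry in the table. In the 250 bases before the start, on both strands, the NRF1 type (GCGCA and GCGC with any 1 base between) occurred in 12 of 79 windows of 74 matched members (15.2%), against 3.74% of all 32851 promoter windows. The ETS type (CCGGAAG) occurred in 16.5% of member windows and 6.91% of all. For the estrogen-related receptor type (TCAAGGTCA) the shares were 1.27% and 0.387%, and for the YY1 type (AAGATGGC) 2.53% and 1.56%. The MEF2 type (CTA and TAG with any 4 bases between) stood in 1.27% against 3.2%, and the E-box (CAGCTG) in 7.59% against 13%. Member windows had a GC content of 56.3% and all windows 53.2%, and a match describes letters only.

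The share of respiratory chain genes that changed was close to that of the whole array. It was lower than that of all probe sets above the negative controls. In null skin 3 member probe sets rose (Ndufa4, Ndufaf4, Atp5k) and 9 fell (Cox6a2, Cox7a1, Ndufv3, both Atp5g2 probe sets, Ndufs7, Sdhc, Ndufa3, Ndufb4b), at a Benjamini-Hochberg adjusted p under 0.05 in limma. The called share was 12.4% of members, and 12.7% of all probe sets tested were called (6.91% higher, 5.74% lower). Among probe sets with a mean above the negative controls, 12.9% of the 93 members and 20% of all were called. The median difference of the 97 was 0 (quartiles -0.10 and 0.08), beside 0.01 for all probe sets (quartiles -0.07 and 0.09). Null arrays lay wholly above WT for 7 members and wholly below for 10, which is 17.5% of members in all. Of all probe sets, 10.1% lay wholly above and 8.6% wholly below, 18.7% in all. Above the negative controls, the arrays did not overlap for 18.3% of members and 27.9% of all probe sets.

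The plot of all members by role shows most of them near 0. For 81 of 97 members the difference was within 0.2 on the log2 scale, and for 93 the 95% confidence interval lay inside a 1.5-fold change. Of all 32750 probe sets, 25855 were within 0.2 and 30041 had the interval inside 1.5-fold. Above the negative controls, 77 of 93 members and 12223 of 18067 probe sets were within 0.2. The interval lay inside 1.5-fold for 89 of these members and 15687 of these probe sets. The 4 members outside were Ndufa4 and the muscle isoforms Cox6a2, Cox7a1 and Cox8b.

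**Figure D1:**
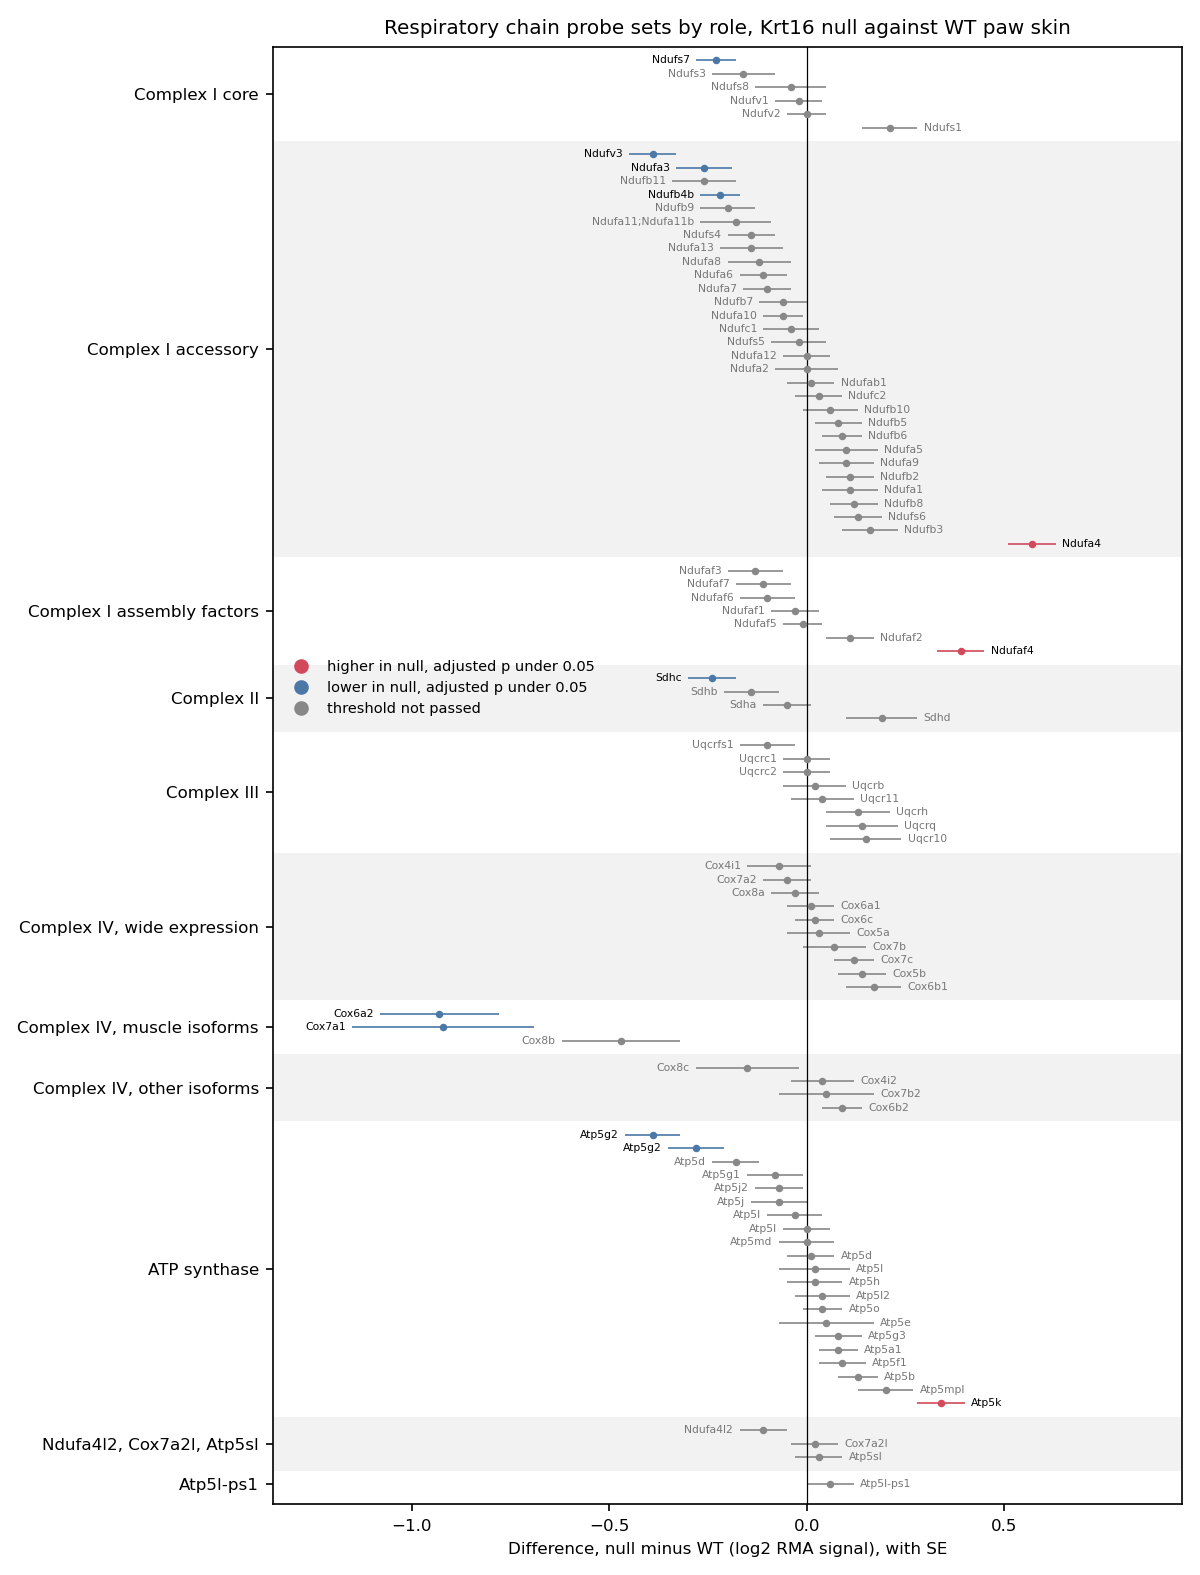
Each point is 1 of the 97 member probe sets, grouped by role, at its fitted difference between 4 Krt16 null and 4 WT arrays (x axis, log2 RMA signal) with its standard error as a bar. Red points rose and blue points fell at an adjusted p under 0.05. Most points lie within 0.2 of 0, Cox6a2 and Cox7a1 lie furthest left at -0.93 and -0.92, and Ndufa4 furthest right at 0.57.

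In complex I, the 43 probe sets for subunits and assembly factors had a median difference of -0.02, with 2 risen and 4 fallen. This called share of 14% stands beside 12.7% of all probe sets and 20% of those above the negative controls. Ndufa4 encodes a small protein first counted to complex I and later placed in complex IV. It is grouped here with complex I by its name and is among the 2 risen. Ndufa4 was read on all 8 arrays. It read 9.05 and 9.04 in male WT, 8.98 and 8.88 in female WT, 9.50 and 9.59 in male null and 9.55 and 9.60 in female null skin. All 4 null arrays lay above all WT arrays, and the groups did not overlap. Ndufa4 rose by 0.57 (SE 0.06, 1.49-fold, adjusted p = 0.000546), and stayed called with any of the 8 arrays left out, at adjusted p between 0.000884 and 0.00429. Its relative Ndufa4l2, an isoform known to be induced by low oxygen, differed by -0.11 (SE 0.06, adjusted p = 0.321).

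A probe set outside the members bears on Ndufa4 and was chosen after its values were seen. It lists AA467197, which encodes NMES1, a paralogue of NDUFA4 known to be induced in inflammation, together with Mir147, so its signal cannot be assigned to either alone. WT arrays read 4.52, 4.35, 4.64 and 4.33, and null arrays 5.57, 5.45, 5.85 and 5.76. The groups were far apart, and the probe set rose by 1.20 (SE 0.09, adjusted p = 9.94e-05), so that both Ndufa4 and the row of its paralogue were higher in null skin. Its WT mean of 4.46 was level with the highest negative control median, so the size of the rise is not exact.

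Ndufaf4 encodes an assembly factor of complex I. Male WT arrays read 6.00 and 6.09, female WT 5.92 and 6.11, male null 6.37 and 6.51, and female null 6.37 and 6.44. Null arrays were all higher, and Ndufaf4 rose by 0.39 (SE 0.06, 1.31-fold, adjusted p = 0.00548). No other assembly factor with an Ndufaf name was called, and the other 6 ran from -0.13 to 0.11.

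Ndufv3 encodes an accessory subunit of the NADH-oxidising arm of complex I. It read 8.52 and 8.44 in male WT, 8.54 and 8.33 in female WT, 8.11 and 8.10 in male null and 8.07 and 7.98 in female null skin. Every null array was lower, and Ndufv3 fell by 0.39 (SE 0.06, adjusted p = 0.00456), a call kept whichever array was left out. The core subunits Ndufv1 and Ndufv2 of the same arm differed by -0.02 and 0 (SE 0.06 and 0.05, adjusted p = 0.906 and 1).

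The other complex I falls were smaller. Ndufs7, a core subunit that carries the last iron-sulfur cluster before ubiquinone, read 7.30, 7.37, 7.44 and 7.32 in WT and 7.17, 7.14, 7.09 and 7.13 in null skin. The groups did not overlap, and Ndufs7 fell by 0.23 (SE 0.05, adjusted p = 0.0253). The accessory subunit gene Ndufa3 read 7.33 to 7.48 in WT and 6.94 to 7.24 in null skin and fell by 0.26 (SE 0.07, adjusted p = 0.0497). Ndufb4b, a near-identical copy of the accessory subunit gene Ndufb4 whose transcripts the array may not separate, read 9.51 to 9.58 in WT and 9.25 to 9.38 in null skin and fell by 0.22 (SE 0.05, adjusted p = 0.027). These 3 calls depended on single arrays. Ndufs7 was lost without either female null array (adjusted p = 0.0898 and 0.0658), male WT 2 (0.0715) or male null 2 (0.0755). Ndufb4b was lost without either male WT array (adjusted p = 0.0654 and 0.0616), either male null array (0.0513 and 0.0612) or either female null array (0.0808 and 0.0816). Ndufa3 was called with all 8 arrays only and had adjusted p of 0.0511 to 0.13 when any of the 8 was left out.

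Complex II, succinate dehydrogenase, links the citric acid cycle to the chain. Sdha, the flavoprotein that oxidises succinate, differed by -0.05 (SE 0.06, adjusted p = 0.705), and Sdhb, the iron-sulfur subunit, by -0.14 (SE 0.07, adjusted p = 0.29). The membrane anchor gene Sdhc read 7.11 and 7.13 in male WT, 7.32 and 7.11 in female WT, 6.94 and 6.95 in male null and 6.87 and 6.97 in female null skin. Sdhc fell by 0.24 (SE 0.06, adjusted p = 0.0395), with no overlap between groups; the adjusted p was 0.0545 with same-numbered mice as pairs, and it ran from 0.06 to 0.126 with any array but female WT 2 left out. Sdhd, the other anchor, read 6.87 to 7.13 in WT and 6.97 to 7.30 in null skin, overlapping, with a difference of 0.19 (SE 0.09, adjusted p = 0.222). Without female WT 1 its difference was 0.26 and its adjusted p 0.0448.

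None of the 8 complex III probe sets was called in limma, and 0 had an unadjusted p under 0.05. None of the 10 for widely expressed complex IV subunits was called, and 3 had an unadjusted p under 0.05. These 10 leave out Ndufa4, which is counted under complex I by its name. Of all 32750 probe sets 8661 had an unadjusted p under 0.05 in limma, as had 6997 of the 18067 above the negative controls. In complex III the differences ran from -0.10 (Uqcrfs1, the Rieske iron-sulfur protein) to 0.15 (Uqcr10), with a median of 0.03. The smallest p values there belonged to Uqcr10 (0.15, SE 0.09, adjusted p = 0.342) and Uqcrh (0.13, SE 0.08, adjusted p = 0.386). In complex IV these 10 widely expressed subunits ran from -0.07 to 0.17. Cox7c (0.12, SE 0.05, adjusted p = 0.151) and Cox5b (0.14, SE 0.06, adjusted p = 0.153) had the smallest p values.

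Complex IV showed the largest differences of the chain, in its striated muscle isoforms. Cox6a2, the heart and skeletal muscle form of subunit 6A, read 7.16 and 6.98 in male WT, 7.55 and 6.87 in female WT, 6.38 and 6.32 in male null and 5.98 and 6.18 in female null skin. Each null array was lower than each WT array, and Cox6a2 fell by 0.93 (SE 0.15, adjusted p = 0.00523), which is 0.526-fold. Leaving out 1 array gave -1.02 to -0.75, called each time. Cox7a1, the muscle form of subunit 7A, read 7.81 and 7.60 in male WT, 8.34 and 7.30 in female WT, 7.37 and 6.87 in male null and 6.69 and 6.45 in female null skin. Male null 1 at 7.37 overlapped female WT 2 at 7.30. Cox7a1 fell by 0.92 (SE 0.23, adjusted p = 0.0338), and the call was lost without male WT 1 (adjusted p = 0.0797), male null 2 (0.1), female null 1 (0.0952) or female null 2 (0.0903), and with a robust prior (0.083). Cox8b, the muscle form of subunit 8, read 5.25 to 5.95 in WT and 5.05 to 5.49 in null skin, overlapping. Its difference of -0.47 (SE 0.15) had an adjusted p of 0.0768, with 0.0322 for same-numbered mice as pairs, 0.0278 with array weights and 0.0349 without female WT 2.

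The widely expressed counterparts of these isoforms did not pass the threshold. Cox6a1 read 10.39 to 10.63 in WT and 10.45 to 10.53 in null skin and differed by 0.01 (95% confidence interval -0.13 to 0.14, adjusted p = 0.968). The difference of Cox7a2 was -0.05 (-0.19 to 0.09, adjusted p = 0.689) and that of Cox8a -0.03 (-0.16 to 0.09, adjusted p = 0.774). For Cox6a1, Cox7a2 and Cox8a the sign turned under at least 1 other setting. Among the isoforms of other tissues, Cox4i2, known from lung and low oxygen, differed by 0.04 (SE 0.08, adjusted p = 0.827) beside -0.07 (SE 0.08, adjusted p = 0.658) for Cox4i1. The testis forms Cox6b2 and Cox8c differed by 0.09 (adjusted p = 0.318) and -0.15 (adjusted p = 0.534).

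Skeletal muscle markers moved with the muscle isoforms. Of 30 marker genes of fast, slow or all skeletal muscle, 22 fell and none rose in null skin, with a median difference of -0.86. Their mean level was 8.21 and 7.96 in male WT, 8.68 and 7.88 in female WT, 7.63 and 7.40 in male null and 7.24 and 7.40 in female null skin, so that WT and null did not overlap. Female WT 1 was the highest array for this mean, as for Cox6a2, Cox7a1 and Cox8b. With the mean as a covariate beside sex, Cox6a2 differed by -0.27 (SE 0.10, adjusted p = 0.251), Cox7a1 by 0.08 (SE 0.19, adjusted p = 0.917) and Cox8b by 0.17 (SE 0.13, adjusted p = 0.652). Sex and the muscle mean together account for 71.5% of the variance of the genotype term. In that fit the standard error of Ndufa4 was 0.11 in place of 0.06. It called 1.6% of all probe sets and 1 member, Ndufa4, still higher. The part of muscle RNA in the results was not tested further.

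**Figure D2:**
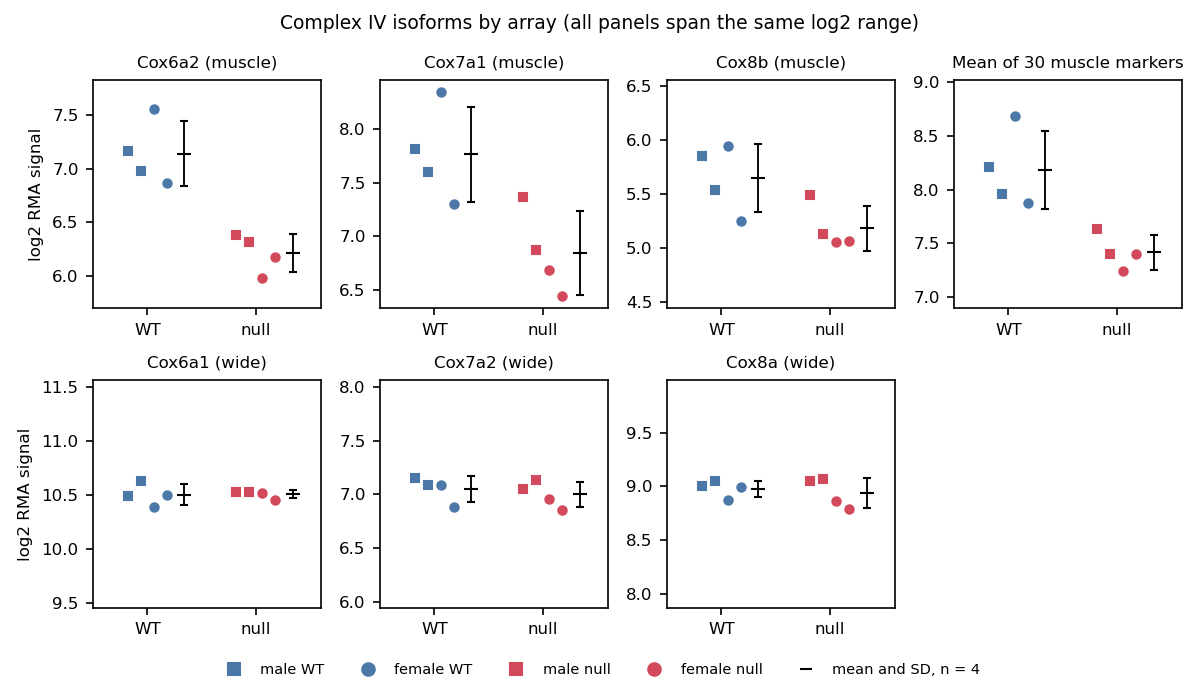
Each symbol is 1 array (squares male, circles female, blue WT, red Krt16 null), with log2 RMA signal on the y axis, all panels spanning the same log2 range, and bars for mean and SD (n = 4). Cox6a2, Cox7a1 and Cox8b lie lower in null skin together with the mean of 30 muscle markers, while Cox6a1, Cox7a2 and Cox8a differ by 0.01, -0.05 and -0.03.

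In ATP synthase 1 probe set rose and 2 fell, of 21 with a median difference of 0.02. This called share of 14.3% stands beside 12.7% of all probe sets and 20% of those above the negative controls. Atp5k encodes subunit e, a small membrane subunit of the part where ATP synthase dimers join. It read 6.84 and 6.94 in male WT, 6.79 and 6.66 in female WT, 7.19 and 7.17 in male null and 7.20 and 7.04 in female null skin. The null arrays were all higher, and Atp5k rose by 0.34 (SE 0.06, 1.26-fold, adjusted p = 0.00926), called with each array left out in turn. Atp5a1 and Atp5b, genes of the catalytic head, differed by 0.08 (adjusted p = 0.348) and 0.13 (adjusted p = 0.142).

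Atp5g1, Atp5g2 and Atp5g3 encode the same mature subunit c, which forms the rotating ring of the enzyme, with different targeting peptides. Atp5g2 has 2 probe sets, and both fell. By their names, the second lies on chromosome 15, as does the Atp5g2 promoter shown above, and the first on another chromosome. Whether the first reads Atp5g2 itself or a copy was not tested. The first read 10.08 and 10.16 in male WT, 10.10 and 10.07 in female WT, 9.94 and 9.75 in male null and 9.60 and 9.58 in female null skin. It fell by 0.39 (SE 0.07, adjusted p = 0.00822) with no overlap between groups, and kept its call with each array left out. The second probe set fell by 0.28 (SE 0.07, adjusted p = 0.0281), from 10.07 to 10.16 in WT to 9.67 to 10.03 in null skin. Its call was lost without either female null array (adjusted p = 0.0845 and 0.0799), male null 2 (0.096), male WT 2 (0.0684) or female WT 2 (0.0607). Both may share signal with copies of Atp5g2, since a further probe set lists it with a provisional gene. Atp5g1 differed by -0.08 (SE 0.07, adjusted p = 0.537) and Atp5g3 by 0.08 (SE 0.06, adjusted p = 0.48), so that of the 3 genes for subunit c Atp5g2 alone passed the threshold; the differences between the genes were not tested. Of the members that are no chain subunits, Atp5sl (0.03, adjusted p = 0.839) and the pseudogene Atp5l-ps1 (0.06, adjusted p = 0.64) were not called.

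**Figure D3:**
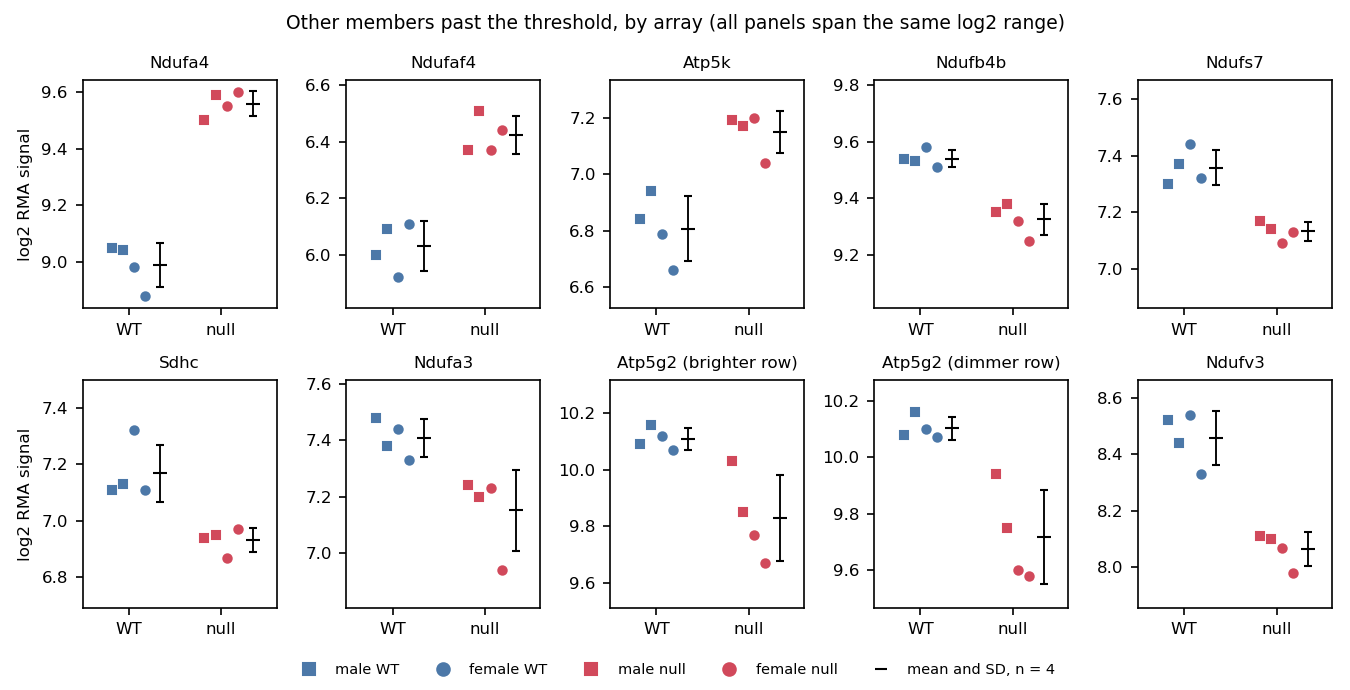
Each symbol is 1 array (squares male, circles female, blue WT, red Krt16 null) for the other 10 members past the threshold, with log2 RMA signal on the y axis, all panels spanning the same log2 range, and bars for mean and SD (n = 4). In every panel null and WT arrays do not overlap; the Atp5g2 panels are its 2 probe sets, the one with the lower mean falling by 0.39 and the other by 0.28.

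The counts of called members moved when 1 array was left out. Between 3 and 8 members were lower and between 3 and 6 higher, with 5 lower without male WT 1, 4 without male WT 2 and 3 without male null 2, female null 1 or female null 2. Higher members numbered 6 without female WT 1 and 5 without female WT 2. The share of all probe sets called in each fit is not given here. The shifts therefore cannot be read as particular to the members. Ndufa4, Ndufaf4, Atp5k, Ndufv3, Cox6a2 and the first Atp5g2 probe set were called in all 8 of these fits. With the muscle mean as a covariate, which ended all calls but that of Ndufa4, Ndufaf4 differed by 0.24 (adjusted p = 0.328), Atp5k by 0.35 (0.195), Ndufv3 by -0.24 (0.288) and the first Atp5g2 probe set by -0.28 (0.33). Ndufs7, Sdhc, Ndufa3, Ndufb4b and the second Atp5g2 probe set differed by -0.12, -0.05, -0.16, -0.16 and -0.18 in that fit.

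Marker lists of other cell types were read beside the members. The mean of 5 neutrophil markers was 4.47 to 6.80 in WT and 7.49 to 7.91 in null skin. S100a8 and S100a9 carried this gap, with differences of 5.69 and 5.40 (adjusted p = 0.00338 and 0.00304). Female WT 1 read 8.70 for S100a8, beside 3.25 to 5.21 in the other WT arrays. Cxcr2 rose by 0.44 (adjusted p = 0.00882), while Csf3r differed by 0.52 (adjusted p = 0.0914) and Ly6g, a defining neutrophil marker, by 0.01 (adjusted p = 0.975). Of 4 proliferation markers 3 rose, and their mean was 7.17 to 7.38 in WT and 7.65 to 7.90 in null skin. Keratinocyte markers, defining for skin, averaged 10.73 to 10.99 and 10.96 to 11.09 over 8 genes, overlapping, with 6 not called, Dsg3 higher by 1.10 (adjusted p = 0.00132) and Lor lower (-0.35, adjusted p = 0.0373). Of 4 brown adipocyte markers, a cell type rich in respiratory chain, Dio2 rose by 0.78 (adjusted p = 0.0102) and Elovl3 fell by 0.51 (adjusted p = 0.0403). Cidea read 7.39 in both groups, and the defining gene Ucp1 read 3.73 in WT and 3.70 in null skin, under the negative controls. The 4-gene means overlapped, at 5.95 to 6.24 in WT and 5.95 to 6.27 in null skin. Of 5 fibroblast markers Dcn alone was called, lower by 0.83 (adjusted p = 0.0423). Of 5 endothelial markers Pecam1 alone was called, higher by 0.27 (adjusted p = 0.0296). Of 3 Schwann cell markers Pmp22 alone was called, lower by 0.47 (adjusted p = 0.00205). No adipocyte, eccrine gland or macrophage marker was called. The part of these cells in the member differences was not tested.

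The chain was also compared between the sexes, where each sex has 2 arrays a genotype. The median member difference was 0.02 in males and -0.03 in females. The interaction, the female minus the male difference, was below 0 for 78 of 97 members (80.4%), with a median of -0.09. It was below 0 for 44.1% of all probe sets tested, and for 51.7% of those above the negative controls. These shares are descriptive, since members share the same arrays. No member passed the threshold for the interaction, and 2 probe sets (0.00611%) did on the whole array. At an unadjusted p under 0.05 stood 2 members (2.06%, against 4.2% of all). Sdhd differed by 0.38 in males and -0.01 in females (interaction -0.38, limma's unadjusted p = 0.019), and Uqcrh by 0.28 and -0.03 (interaction -0.31, limma's unadjusted p = 0.048). The difference of Cox7a1 was -0.59 in males and -1.25 in females, and the muscle markers had median differences of -0.60 and -1.04.

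**Figure D4:**
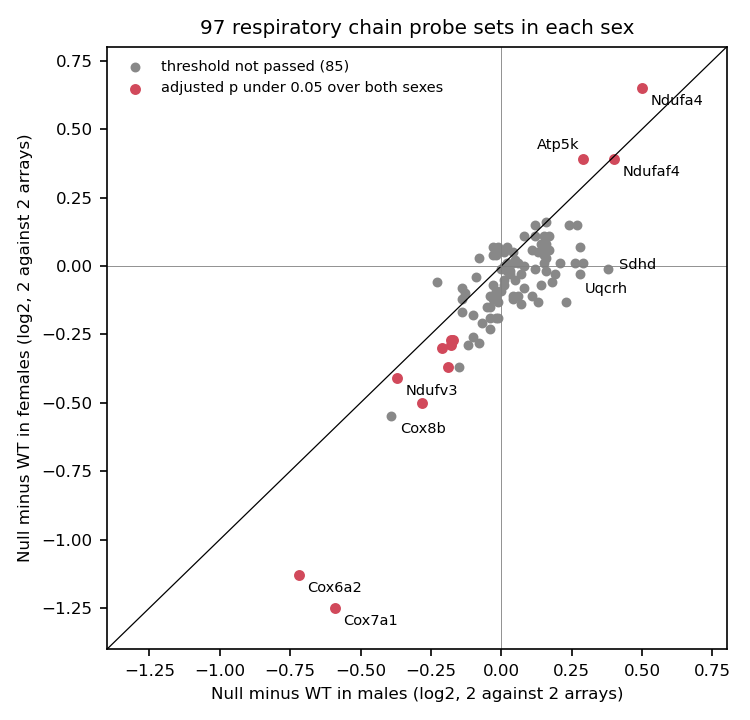
Each point is 1 of 97 member probe sets, at its difference between null and WT skin in males (x axis) and in females (y axis), in log2 RMA signal with 2 against 2 arrays in each sex. Red points passed the threshold over both sexes, the diagonal marks equal differences, and 78 points lie below it.

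Genes that work beside the chain were taken from lists of its partners. In these and the marker lists, a gene with several probe sets was read from its brightest one. Whether the probe set read for Cycs reports the gene itself or a copy was not tested. Of Cyc1 and Cycs, which encode cytochrome c1 and cytochrome c, Cycs rose by 0.28 (SE 0.06, adjusted p = 0.0147), from 8.64 to 8.78 in WT to 8.91 to 9.11 in null skin, and Cyc1 differed by 0.16 (adjusted p = 0.15). Of the assembly factors outside the Ndufaf names, none of 7 for complex I, 4 for complex II, 4 for complex III or 15 for complex IV was called in limma; 2, 0, 2 and 3 had an unadjusted p under 0.05. Atpaf1, an assembly factor of ATP synthase, fell by 0.21 (adjusted p = 0.0456), as 1 of 4. In the pyruvate dehydrogenase and citric acid cycle list none of 15 was called and 5 had an unadjusted p under 0.05, with a median difference of 0.01. On the whole array 8661 of 32750 probe sets had such a p in limma, and 6997 of the 18067 above the negative controls.

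Other partner lists held called genes too, at shares of 18.2% (coenzyme Q), 23.1% (regulators), 16.7% (fatty acid oxidation) and 12.5% (carriers and channels). On the whole array 12.7% of probe sets were called, and 20% of those above the negative controls. In the coenzyme Q list 2 of 11 fell, Coq10a, a coenzyme Q-binding protein, by 0.51 (SE 0.10, adjusted p = 0.00983) and Adck3, a kinase-like protein needed for coenzyme Q synthesis, by 0.49 (SE 0.11, adjusted p = 0.0217). Among 13 regulators of mitochondrial biogenesis 2 fell and 1 rose. Ppargc1a, the coactivator PGC-1alpha, read 6.39, 6.00, 6.30 and 6.53 in WT and 5.53, 5.73, 5.79 and 5.85 in null skin. With no overlap between groups it fell by 0.58 (SE 0.10, adjusted p = 0.00602). Ppara, a nuclear receptor for fatty acid use, fell by 0.27 (adjusted p = 0.0169), and Pprc1, a coactivator related to PGC-1alpha, rose by 0.26 (adjusted p = 0.0393). The factors Nrf1, Gabpa and Tfam differed by 0.07, 0.03 and 0.03 (adjusted p = 0.491, 0.852 and 0.803).

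In the fatty acid oxidation list 2 of 12 fell, Cpt1b, the muscle form of carnitine palmitoyltransferase, by 0.57 (SE 0.15, adjusted p = 0.0352) and Acadm, a medium-chain dehydrogenase, by 0.40 (SE 0.05, adjusted p = 0.00253). Of 8 carriers and channels, Slc25a4, the ADP/ATP carrier of heart and muscle, fell by 0.34 (SE 0.09, adjusted p = 0.0393), while its widely expressed relative Slc25a5 differed by 0.27 (SE 0.09, adjusted p = 0.0853). With the muscle mean as a covariate Slc25a4 differed by -0.04 (adjusted p = 0.939), Cpt1b by 0.04 (0.943), Coq10a by -0.16 (0.61) and Adck3 by -0.10 (0.848), Ppargc1a by -0.67 (0.105) and Acadm by -0.44 (0.0754). No gene of the partner lists was called in that fit. Of 74 mitochondrial ribosome genes 5 rose and 1 fell, with a median of 0.07 and a called share of 8.11%. The largest rises were Mrpl47 and Mrps7, both by 0.28 (adjusted p = 0.0256 and 0.0314), and Mrps31 fell by 0.24 (adjusted p = 0.0423).

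**Figure D5:**
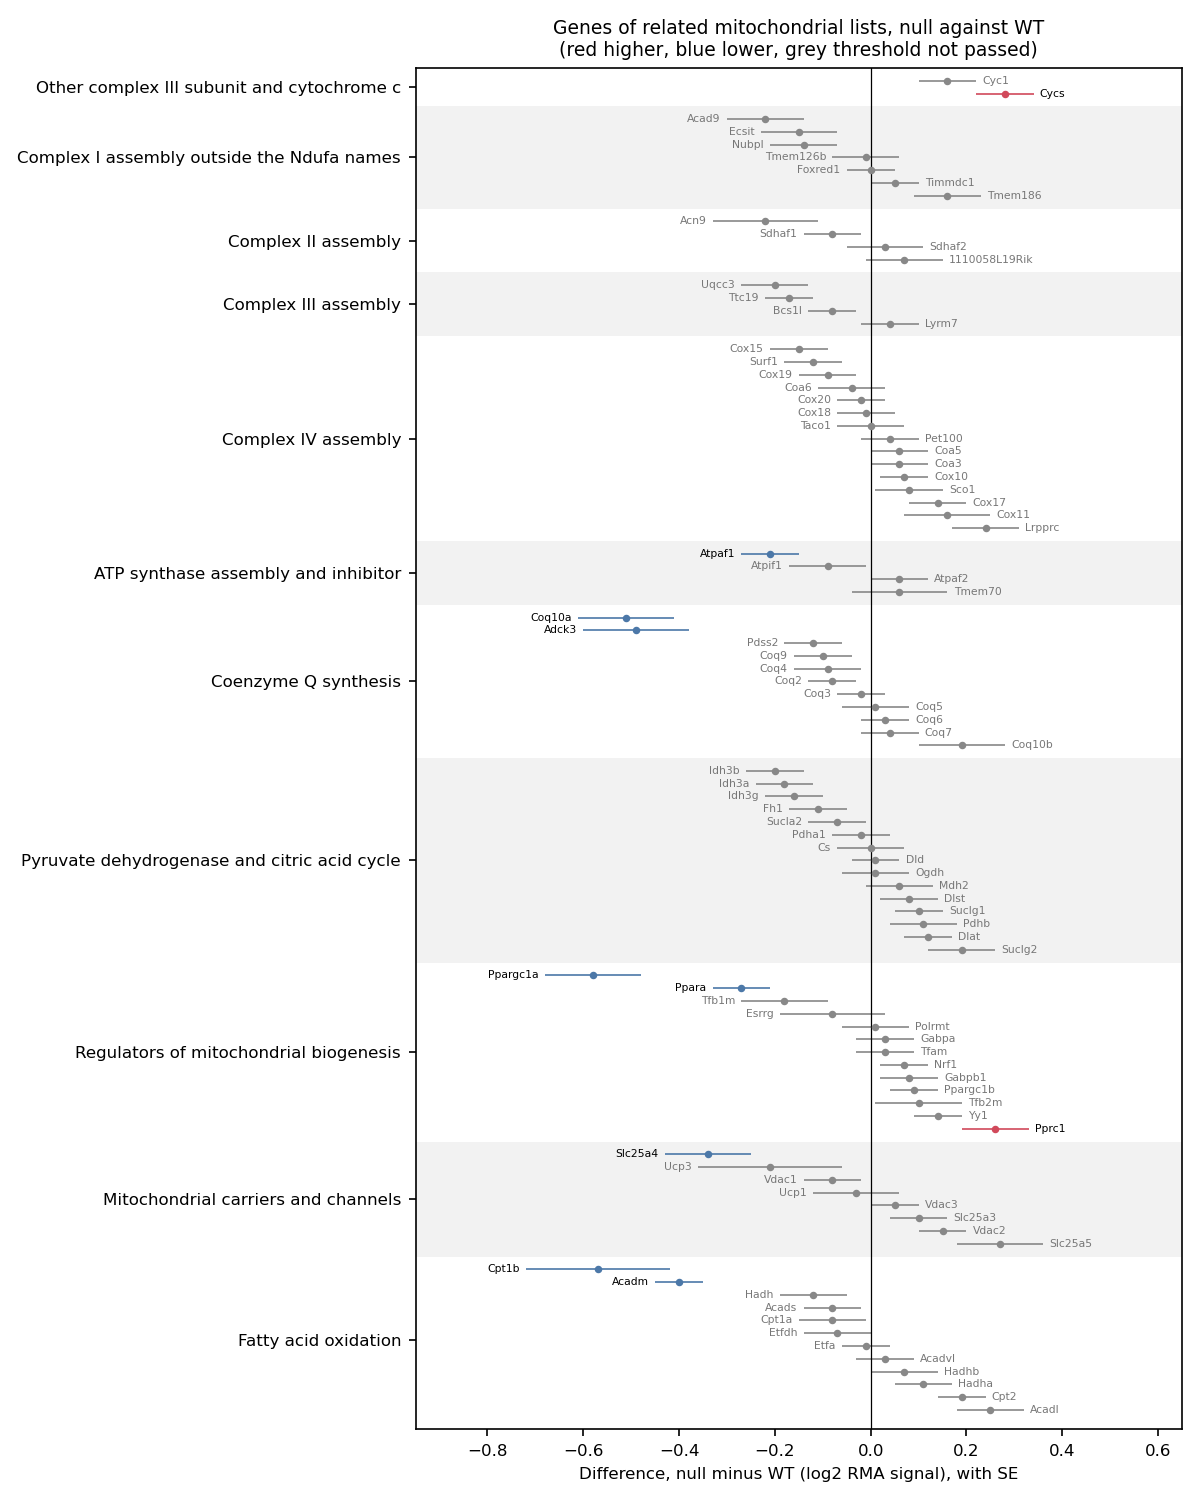
Each point is 1 gene of a list of respiratory chain partners, at its difference between 4 Krt16 null and 4 WT arrays (x axis, log2 RMA signal) with its standard error as a bar; red rose, blue fell and grey did not pass an adjusted p of 0.05. Ppargc1a, Cpt1b, Coq10a and Adck3 lie furthest left, between -0.58 and -0.49, and the citric acid cycle and the assembly factors of complexes I to IV hold no called gene.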

How the data were processed

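Total RNA of 8 paw skin samples was labelled with the Affymetrix WT PLUS kit, 1 array per mouse. The deposited log2 values are RMA signals that the authors computed in Partek, per the submitters' processing notes. Not given in the sources used here were versions, settings and build. The members and gene lists were chosen with earlier results of these data known. Of 72688 probe sets, 6732 controls and 33206 without a symbol were left out; 2146 of the 32750 tested list several symbols. Symbols come from the platform annotation. limma 3.58.1 in R 4.3.3 (lmFit, eBayes with trend) fitted genotype and sex on all 8 arrays, and p-values were Benjamini-Hochberg adjusted over all 32750 (threshold 0.05, two-sided). Sex differences came from 4 group means. Arrays have no read depth, so their number limits the precision.

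Named were every called member, the 2 smallest p of a role without calls, complex II, isoform pairs, subunit c genes, the 2 largest rises and falls called in each partner list, and the 2 smallest interaction p. Deviations of same-numbered mice correlated at 0.307 in males and 0.103 in females, both over the limit of 0.1, so numbers were treated as pairs in an alternative. With 2 mice in a group their deviations are opposite, so each correlation rests on a single pair and cannot show pairing. The labels do not say that numbers mark a litter or day. The fit was also run with the muscle mean as a covariate, without the sex term, on each sex alone, with 1 array left out, with array weights, with a robust prior and without the trend. Values were also centred on the median or quantile normalized again, and the rows were limited to brighter probe sets or 1 probe set per gene, or widened to every probe set that is no control. Python 3.11.15 with numpy 2.4.6, pandas 2.3.3 and matplotlib 3.10.9 made tables and plots.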

Additional observations from a re-analysis of the deposited data

Results flagged for a closer look

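In 3 of 64 sets of 4 arrays, 1 array lay far from the other 3, and chance marks about 1 in 20 such groups. Ndufa3 read 6.94 in female null 2, while the other null arrays read 7.20 to 7.24. Sdhc read 7.32 in female WT 1 beside 7.11 to 7.13 in the other WT arrays. Cox4i2 read 5.83 in male WT 1 beside 5.61 to 5.64.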

How the results depend on the processing

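The median member difference stayed within 1 SD between arrays (0.0847) of 0 under all 14 settings, from -0.03 (females only) to 0.08 (muscle covariate), and no member passed the threshold for the interaction under any of its 8 settings. Members lower in null numbered 5 with median centring, 0 with the muscle covariate, 1 in males only and 0 in females only. Members higher numbered 1, 1 and 0 in the last 3 of these settings. Of all probe sets, 11% were called with median centring and 1.6% with the muscle covariate, against 12.7% in the main fit. With 1 array left out, lower members ranged from 3 to 8 and higher members from 3 to 6. For these fits and those on 1 sex, the share of all probe sets called is not given here. The replicate block of same-numbered mice gave 10 lower and 4 higher, lost Sdhc and gained Cox8b, and changed no other call among the members named. It called 14.4% of all probe sets. Median centring lost Ndufa3, Ndufb4b, Sdhc and the second Atp5g2 probe set, and fitting all non-control probe sets lost Ndufa3 and Sdhc. That last fit called 7.34% of its probe sets. The sign turned for Cox6a1 (-0.06) and Atp5l-ps1 (-0.04) with repeated quantile normalization, and for Cox6a1 with array weights (0). It turned with the muscle covariate for Atp5g1 (0.11), Sdhb (0.09), Cox8c (0.02), Cox8b (0.17), Cox7a1 (0.08), Cox6a1 (-0.13), Cox7a2 (0.08), Cox4i1 (0.20) and Ndufa4l2 (0.02). In males only it turned for Cox6a1 (-0.03) and Cox8a (0.04), and in females only for Atp5g3 (-0.03), Sdhd (-0.01), Uqcrh (-0.03) and Atp5l-ps1 (-0.01). Leaving out 1 array turned 5 small differences, over ranges of -0.01 to 0.06 for Atp5sl, -0.12 to 0.01 for Cox4i1, -0.01 to 0.09 for Cox4i2, -0.02 to 0.04 for Cox6a1 and -0.06 to 0 for Cox8a. The fits on 1 sex hold fewer samples; the cause of the other changes was not tested. The 4 member probe sets near the negative controls have little signal to show a difference.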
